A study of Homo sapiens with 8 samples.

Results

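The 10 genes described here encode heat shock proteins of the cytosol and nucleus, their partners and the transcription factor that controls them. They are the rows of the deposited table named HSPB6, HSPB1, HSPA1A, HSPA1B, HSPA8, HSPH1, HSP90AA1, DNAJB1, BAG3 and HSF1, 10 of 60240 rows. HSPB6 was selected on its measured log2 difference between RG3039 and DMSO, so its values are given as a description, with no p-value. It has no place in the counts of called genes before the closing section, whose counts include it. The other 9 are classic genes of the same response. All 10 reached the filter, a normalised value averaging 10 or more across libraries, as did 17534 rows in all. HSPB6 reached it only through the libraries given RG3039, and BAG3, which averaged 8.31 in DMSO, through treated libraries.

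RNA was measured in HL-60, an established human promyelocytic leukaemia cell line described in the labels as wild type, with 4 groups of 2 libraries. Cells in all groups were collected 72 h after the start. The groups received the solvent DMSO, decitabine (100 nM, given each day up to day 2), RG3039 (2 µM, given once), or both drugs at these doses, called the combination below. Decitabine is a cytidine analogue that is built into DNA and traps DNA methyltransferases, and RG3039 inhibits the scavenger decapping enzyme DcpS. The study compared expression between these treatments. The 2 libraries of a group came from wells seeded in parallel, so the errors measure the spread between wells of 1 culture experiment.

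Heat shock proteins are chaperones that keep other proteins folded. Small heat shock proteins hold unfolding proteins in solution, HSP70 proteins bind and release them with the help of J-domain proteins and nucleotide exchange factors, and HSP90 completes the folding of kinases and receptors. Under heat or other protein stress, HSF1 forms trimers, binds inverted repeats of the bases GAA (heat shock elements) and raises transcription of many of these genes. HSPA8 and HSP90 proteins are also made at a high level without stress, above all in growing cells.

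Promoters are shown first because most of these genes are textbook targets of HSF1, and the heat shock element is the feature they would share. The 250 bases before the annotated start were taken from RefSeq (GRCh38.p14), where 9 of the 10 genes had an entry. Capitals mark every match on either strand to GAANNTTC or TTCNNGAA, which hold 2 inverted GAA units and read the same on both strands. Overlapping matches run together. Shown are HSPB6, which was higher with RG3039, HSPA8 and HSP90AA1, which were lower with the combination, and the near-identical pair HSPA1A and HSPA1B.
HSPB6 (chr19:35757030-35757279, minus strand): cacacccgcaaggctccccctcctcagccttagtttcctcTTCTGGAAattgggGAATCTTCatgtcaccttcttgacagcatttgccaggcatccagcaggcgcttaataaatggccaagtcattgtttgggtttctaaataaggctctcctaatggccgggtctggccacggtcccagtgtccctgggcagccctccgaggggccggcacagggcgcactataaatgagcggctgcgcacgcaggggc
HSPA8 (chr11:123062137-123062386, minus strand): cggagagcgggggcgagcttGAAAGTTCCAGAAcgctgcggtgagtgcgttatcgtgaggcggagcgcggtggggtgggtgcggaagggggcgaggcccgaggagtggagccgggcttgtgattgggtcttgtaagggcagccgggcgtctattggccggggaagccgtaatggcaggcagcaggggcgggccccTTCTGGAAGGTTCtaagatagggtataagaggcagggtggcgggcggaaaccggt
HSP90AA1 (chr14:102087045-102087294, minus strand): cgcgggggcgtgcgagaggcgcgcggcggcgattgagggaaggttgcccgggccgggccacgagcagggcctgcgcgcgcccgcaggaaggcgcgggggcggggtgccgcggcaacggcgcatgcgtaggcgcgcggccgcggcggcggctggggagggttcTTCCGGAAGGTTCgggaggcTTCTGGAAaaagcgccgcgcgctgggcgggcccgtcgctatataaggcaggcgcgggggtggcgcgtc
HSPA1A (chr6:31815293-31815542, plus strand): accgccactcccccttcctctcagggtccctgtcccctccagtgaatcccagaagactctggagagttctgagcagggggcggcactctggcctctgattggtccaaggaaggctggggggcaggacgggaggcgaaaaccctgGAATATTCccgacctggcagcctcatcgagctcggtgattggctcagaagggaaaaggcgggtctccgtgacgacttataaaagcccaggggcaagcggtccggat
HSPA1B (chr6:31827488-31827737, plus strand): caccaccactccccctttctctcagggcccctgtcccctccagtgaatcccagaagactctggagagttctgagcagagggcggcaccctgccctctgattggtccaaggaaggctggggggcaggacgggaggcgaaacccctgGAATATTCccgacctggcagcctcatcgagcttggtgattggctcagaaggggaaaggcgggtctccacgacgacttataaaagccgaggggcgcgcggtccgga
HSPA8 held 2 matches to a 3-unit element (GAANNTTC followed by NNGAA, or TTCNNGAA followed by NNTTC, which contain the 2-unit matches) and HSP90AA1 held 1, against 0.441% of 35116 promoter entries with at least 1. Of the 9 genes, taking the entry nearest the start of the principal transcript, 7 held a 2-unit match, against 11.6% of all entries. HSPB6 held 2 such matches, the first starting 210 bases before its start (position -210). HSPH1 and BAG3 held none in this window. The start used for HSPH1 lay 461 bases from that of its principal transcript (10 for BAG3). The bases just before the principal start of HSPH1 were therefore not searched. A match describes letters, not binding.

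HSPB6, a small heat shock protein known from muscle, was close to 0 in DMSO and present in every library given RG3039. Its normalised values were 0.757 and 1.51 (DMSO), 8.09 and 3.12 (decitabine), 55.1 and 109.03 (RG3039), and 53.3 and 61.1 (combination). Divided by the value of 1 read in each library, these were 1 and 1 reads (DMSO), 6 and 3 (decitabine), 41 and 137 (RG3039), and 64 and 87 (combination). The libraries with RG3039 did not overlap with those without it. The ratio of RG3039 to DMSO was 88.3, with an exact 95% interval of 24.1 to 734 that covers counting error only, and it rests on 2 reads in the DMSO group. The ratio was 57.04 (15.5 to 475) for the combination and 5.24 (1.08 to 49.8) for decitabine. On the scale of log2(value + 1), the difference from DMSO was 5.23 ± 0.74 (standard error, n = 2) with RG3039, 4.79 ± 0.74 with the combination and 1.54 ± 0.74 with decitabine. These depend on the constant added, and with 5 in place of 1 the last was 0.75 and that of the combination 3.34. The combination set against decitabine gave 3.25 ± 0.74, and against RG3039 -0.44 ± 0.74.

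HSPB6 lies on chromosome 19 (35754569 to 35758079 on GRCh38, minus strand, ENSG00000004776.13). An antisense gene overlaps 922 bases of it and was listed at 0 in 7 of the 8 libraries. None of the 251 windows of 50 bases, the read length, in the last 300 bases of its principal transcript occurred in a transcript of another gene. HSPB6 is best known from muscle, and the 6 muscle markers (DES, MYH11, CNN1, ACTA1, MYL2 and TNNT2) summed to 109 to 188 in DMSO, 149 to 188 with decitabine, 151 to 184 with RG3039 and 226 to 231 with the combination. MYL2 was at 0 in all libraries, DES was at most 19.1, and whether these transcripts bear on the HSPB6 values was not tested.

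HSPB1, the other small heat shock protein listed, stayed within a narrow range. HSPB1 had normalised values of 2183 and 1804 (DMSO), 2110 and 2429 (decitabine), 2140 and 2195 (RG3039), and 2029 and 1974 (combination). The difference of the combination from DMSO was 0.01 ± 0.15 on the log2 scale, with a 95% interval of -0.34 to 0.36. HSPB1 was not called in any comparison. Of its windows at the 3′ end, 36.3% also occur in the pseudogenes HSPB1P1 and HSPB1P2, so its level is uncertain. Of 8 other small heat shock genes listed, 7 had a mean value under 10, and CRYAA, HSPB2, HSPB8 and HSPB9 were at 0 in every library.

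**Figure D1:**
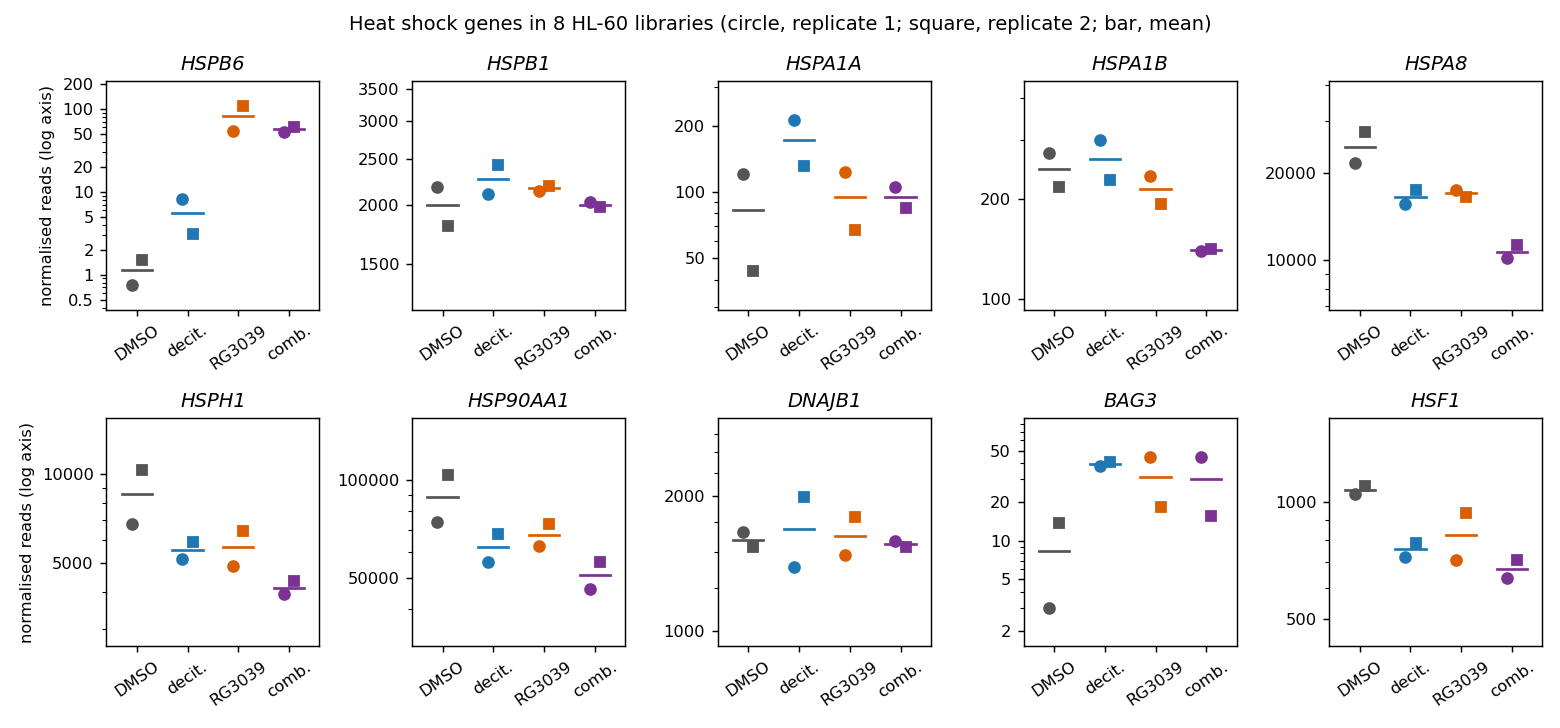
Normalised reads of the 10 heat shock genes in each of the 8 libraries (log axis, a separate range in each panel), by treatment, with replicate 1 as circles, replicate 2 as squares and bars for the group mean. HSPB6 lies between 53.3 and 109.03 in the 4 libraries given RG3039 and at or below 8.09 in the other 4, and HSPA8 is lowest with the combination at 10171 and 11254.

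HSPA8, the constitutive HSP70 of the cytosol, fell with the combination. Its normalised values were 21639 and 27439 (DMSO), 15578 and 17356 (decitabine), 17444 and 16507 (RG3039), and 10171 and 11254 (combination). The groups fell into 3 levels that did not overlap, with DMSO highest, both single drugs in the middle and the combination lowest. The combination was lower than DMSO by a log2 difference of -1.19 ± 0.15 (limma adjusted p = 0.000611). It was also lower than with decitabine alone (-0.62 ± 0.15, adjusted p = 0.0361), while the difference from RG3039 alone was -0.67 ± 0.15 (adjusted p = 0.0523). Each single drug gave a difference from DMSO of about the same size that missed the threshold, -0.57 ± 0.15 for decitabine (adjusted p = 0.0847) and -0.52 ± 0.15 for RG3039 (adjusted p = 0.0628). Without DMSO replicate 1 these differences were -0.74 and -0.69, and without DMSO replicate 2 they were -0.40 and -0.35. With quantile normalization that of RG3039 passed the threshold (limma adjusted p = 0.0339) while that of decitabine was -0.38. The call against DMSO held in every alternative tried, at adjusted p from 0.000301 to 0.0157. The call against decitabine was lost with no filter (adjusted p = 0.0748), without the mean-variance trend (0.157) and in 6 of 8 fits that left out 1 library, at adjusted p from 0.0631 without RG3039 replicate 1 to 0.230 without combination replicate 1, with 0.0637, 0.0909, 0.129 and 0.141 between them. These were the fits without RG3039 replicate 2, decitabine replicate 1, combination replicate 2 and decitabine replicate 2. HSPA8 lies on chromosome 11 (123057489 to 123063230 on GRCh38, minus strand). It has 17 named pseudogenes, yet only 0.797% of its windows at the 3′ end occur elsewhere.

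HSPH1, the HSP110 protein that acts as a nucleotide exchange factor for HSP70, fell with the combination as well. Libraries had normalised values of 6792 and 10346 (DMSO), 5153 and 5904 (decitabine), 4909 and 6449 (RG3039), and 3935 and 4353 (combination). DMSO replicate 2 was the highest library by a wide margin, and the combination libraries were below all the others. The log2 difference of the combination from DMSO was -1.02 ± 0.21 (limma adjusted p = 0.00768), which became adjusted p = 0.0611 without combination replicate 1 and 0.0565 without the mean-variance trend. With decitabine it was -0.60 ± 0.21 (adjusted p = 0.176) and with RG3039 -0.58 ± 0.21 (adjusted p = 0.139). Without DMSO replicate 2 these differences were -0.30 and -0.27, and without DMSO replicate 1 they were -0.91 (adjusted p = 0.0543) and -0.88 (adjusted p = 0.0377).

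The stress-inducible HSP70 genes HSPA1A and HSPA1B, which encode the same protein, were not called in any comparison. HSPA1A had normalised values of 121.07 and 43.8 (DMSO), 213 and 131 (decitabine), 124 and 66.8 (RG3039), and 105 and 84.9 (combination). HSPA1B had 274 and 217 (DMSO), 301 and 228 (decitabine), 234 and 193 (RG3039), and 140 and 142 (combination). For HSPA1A the range of the DMSO libraries held both combination libraries and overlapped that of RG3039. For HSPA1B the combination libraries lay below the other 6. The log2 difference of HSPA1B between the combination and DMSO was -0.79 ± 0.27 (limma adjusted p = 0.0577), and -0.89 ± 0.27 against decitabine (adjusted p = 0.0749). The first was called with quantile normalization, at adjusted p = 0.0330.

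The genes lie near each other on chromosome 6, HSPA1A at 31815464 to 31817946 and HSPA1B at 31827735 to 31830255, both on the plus strand. They share sequence, so the split between them is uncertain. Of 2434 windows of 50 bases in the HSPA1A transcript, 72.6% also occur in HSPA1B. The last shared window ends 331 bases before the 3′ end, and none of the 251 windows in the last 300 bases, the end that 3′ sequencing reads, was shared. The share of HSPA1A in the sum of both was 30.7% and 16.8% (DMSO), 41.5% and 36.5% (decitabine), 34.6% and 25.7% (RG3039), and 42.9% and 37.5% (combination). The sum was 395 and 261 (DMSO), 514 and 359 (decitabine), 357 and 260.2 (RG3039), and 245 and 227 (combination). Fitted as 1 row, a choice made after seeing the data, the combination differed from DMSO by -0.45 ± 0.29 (limma adjusted p = 0.310) and from decitabine by -0.86 ± 0.29 (adjusted p = 0.108). For HSPA1A alone the difference from DMSO with the combination was 0.37 ± 0.52, so the sign turned when the pair was summed. It also turned when DMSO replicate 2 was left out (-0.36), and the value was 1.09 without DMSO replicate 1 and 0.06 with quantile normalization.

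HSP90AA1, the inducible HSP90 of the cytosol, had normalised values of 74014 and 103752 (DMSO), 56020 and 68381 (decitabine), 62635 and 72958 (RG3039), and 46063 and 55968 (combination). Both DMSO libraries were above the other 6, and both combination libraries were below them. It fell with the combination by a log2 difference of -0.79 ± 0.19 (limma adjusted p = 0.0163). Leaving out DMSO replicate 2 took it to adjusted p = 0.0967 and leaving out combination replicate 1 to 0.142. It also missed the threshold at 0.0850 without the mean-variance trend and 0.0588 with quantile normalization, where the difference was -0.45. With single drugs the differences were -0.50 ± 0.19 for decitabine (adjusted p = 0.213) and -0.37 ± 0.19 for RG3039 (adjusted p = 0.285). They were -0.26 and -0.13 without DMSO replicate 2, and -0.30 and -0.16 with quantile normalization.

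DNAJB1, the J-domain protein that delivers substrates to HSP70, showed no order among the treatments. DNAJB1 had normalised values of 1658 and 1539 (DMSO), 1388 and 1989 (decitabine), 1473 and 1791 (RG3039), and 1585 and 1540.0 (combination). The decitabine libraries spanned the range of all others. The log2 difference of the combination from DMSO was -0.03 ± 0.20, with a 95% interval of -0.47 to 0.41, and no comparison called it. The gene overlaps 12686 bases of TECR on the opposite strand, and the strand used in counting is unknown here. DNAJB1, on the minus strand, has its annotated 3′ end at 14514770, outside TECR (14517085 to 14565980). The annotated 3′ end of TECR lies outside DNAJB1. TECR had 1181 and 1699 (DMSO), 1251 and 1504 (decitabine), 1312 and 1527 (RG3039), and 1341 and 1475 (combination).

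BAG3, an exchange factor that links HSP70 to small heat shock proteins and to autophagy, was low in all libraries. Its normalised values were 3.03 and 13.6 (DMSO), 37.8 and 40.5 (decitabine), 44.3 and 18.3 (RG3039), and 44.9 and 15.4 (combination). In reads these were 4 and 9 (DMSO), 28 and 39 (decitabine), 33 and 23 (RG3039), and 54 and 22 (combination). Every treated library was above both DMSO libraries. BAG3 averaged 8.31 in DMSO, so it passed the filter on low values through treated libraries. The log2 differences from DMSO were 2.39 ± 0.82 with decitabine (limma adjusted p = 0.169), 1.95 ± 0.82 with RG3039 (adjusted p = 0.194) and 1.84 ± 0.82 with the combination (adjusted p = 0.139). None was called, and they ranged from 0.91 to 3.32 when either DMSO library was left out.

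HSF1, the factor that switches these genes on under stress, fell with the combination. Its normalised values were 1047 and 1094 (DMSO), 723 and 786 (decitabine), 710.2 and 937 (RG3039), and 639 and 709 (combination). The DMSO libraries were the highest and the combination libraries the lowest. The log2 difference of the combination from DMSO was -0.67 ± 0.19 (limma adjusted p = 0.0293). It missed the threshold in each fit that left out a DMSO library (adjusted p = 0.0710 without replicate 1 and 0.107 without replicate 2) or a combination library (0.161 and 0.0797). The same held at 0.0545 with quantile normalization and 0.0764 without the mean-variance trend. The difference was -0.51 ± 0.19 with decitabine (adjusted p = 0.1996) and -0.39 ± 0.19 with RG3039 (adjusted p = 0.252). The latter was -0.19 without RG3039 replicate 1 and -0.59 without RG3039 replicate 2. The 3′ end of HSF1 overlaps that of DGAT1, on the opposite strand, by 139 bases. The strand used in counting is unknown, so reads of the opposite strand in this stretch cannot be told apart. DGAT1 had 850 and 744 (DMSO), 829 and 1139 (decitabine), 907 and 945 (RG3039), and 1327 and 992 (combination).

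**Figure D2:**
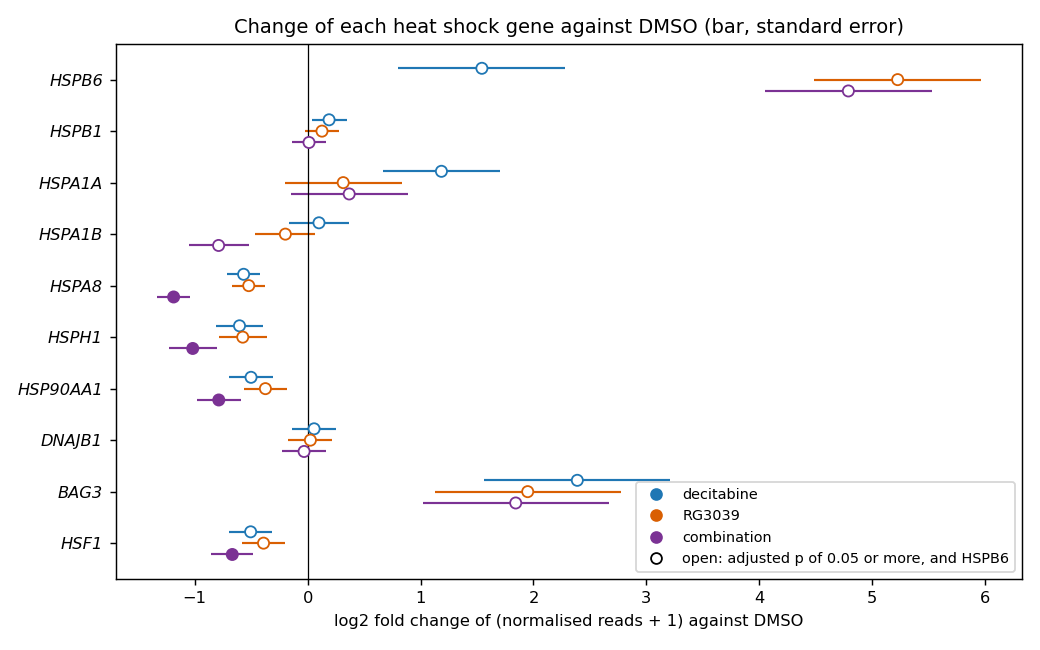
Log2 fold change of each heat shock gene against DMSO, on the scale of log2(normalised reads + 1), for decitabine, RG3039 and the combination, with bars for the standard error and filled points where limma's adjusted p was under 0.05 (HSPB6 is drawn unfilled, as a description). HSPA8, HSPH1, HSP90AA1 and HSF1 are filled for the combination only, from -1.19 to -0.67, HSPB6 (listed for its difference with RG3039) lies at 5.23 and 4.79 in the treatments with RG3039, and HSPB1 and DNAJB1 lie near 0.

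Of the 9 genes other than HSPB6, decitabine gave 0 calls against DMSO by limma, beside 2.14% of all genes tested. An unadjusted p under 0.05 was found for 6 of the 9, and for 3130 of the 17534. RG3039 gave 0 calls among the 9, beside 8.12%, with an unadjusted p under 0.05 for 3999 of all genes and for HSPA8, HSPH1 and BAG3. The combination gave 4 calls beside 24.1%, all lower, HSPA8, HSPH1, HSP90AA1 and HSF1, beside 12.7% of all genes called lower and 11.4% higher. The 3 comparisons share the DMSO libraries. The median log2 difference of these 9 was 0.06 with decitabine (DNAJB1), -0.20 with RG3039 (HSPA1B) and -0.67 with the combination (HSF1). The median of all genes tested was 0.01, -0.0025 and 0.04 in the same order. The combination called 1 of the 9 with no mean-variance trend, where 2847 of all genes were called, against 4221 in the main fit. Fewer of the 9, and fewer of all genes, were also called without DMSO replicate 2 or combination replicate 1.

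Without a test, the genes whose libraries did not overlap with DMSO can be counted. With decitabine 3 of the 10 lay wholly above DMSO (23.7% of all genes) and 4 wholly below (23.1%). With RG3039 2 lay above (25.8%) and 4 below (26.1%), and with the combination 2 lay above (32.2%) and 5 below (30.6%). HSPB6 and BAG3 were above DMSO in each of the 3. HSPB6 was selected on its difference with RG3039, so its place in these counts is a description only. The same holds for BAG3, which averaged 8.31 in DMSO and passed the filter through treated libraries. HSP90AA1, HSPA8, HSPH1 and HSF1 were below DMSO in each of the 3. With the combination against decitabine, 1 lay above, HSPB6 (25.7%), and 7 below (27.3%), against RG3039 0 above (26.2%) and 6 below (25%). RG3039 against decitabine had 1 above, HSPB6 (23.8%), and 1 below, HSPA1A (24.5%).

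Treatments were also set against each other. The combination against decitabine gave 1 call among the 9 genes, HSPA8, beside 7.33% of all genes. The combination against RG3039 gave 0 calls beside 2.28%, with an unadjusted p under 0.05 for 1 gene, HSPA8, and for 3126 of all genes. HSPA8 was under the threshold there in 6 alternatives, among them quantile normalization (adjusted p = 0.0336) and the fits without DMSO replicate 1 (0.0339) and 2 (0.0344). RG3039 against decitabine gave 0 calls among the 9 by limma, beside 4.60%, and 0 of them had an unadjusted p under 0.05. Their log2 differences between RG3039 and decitabine ran from -0.87 for HSPA1A to 0.13 for HSP90AA1. HSPB6 gave 3.68 ± 0.74. For HSPA8 this difference was 0.05 ± 0.15, with a 95% interval of -0.29 to 0.38.

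Whether both drugs together departed from the sum of the single drugs was tested with the interaction, (combination - decitabine) - (RG3039 - DMSO). For HSPA8 it was -0.10 ± 0.21 (limma adjusted p = 0.964), for HSPH1 0.16 ± 0.30, for HSP90AA1 0.09 ± 0.27 and for HSF1 0.23 ± 0.27. The 95% interval for HSPA8 ran from -0.57 to 0.37. Larger estimates with wide errors came from HSPB6 (-1.98 ± 1.05) and BAG3 (-2.49 ± 1.16, adjusted p = 0.880), both with few reads in DMSO. None of the 17534 genes was called in this contrast, where 1014 had an unadjusted p under 0.05. Of the heat shock genes other than HSPB6, none had an unadjusted p under 0.05. HSPB6 was selected on its difference between RG3039 and DMSO, which is part of this contrast, so its estimate is a description only.

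**Figure D3:**
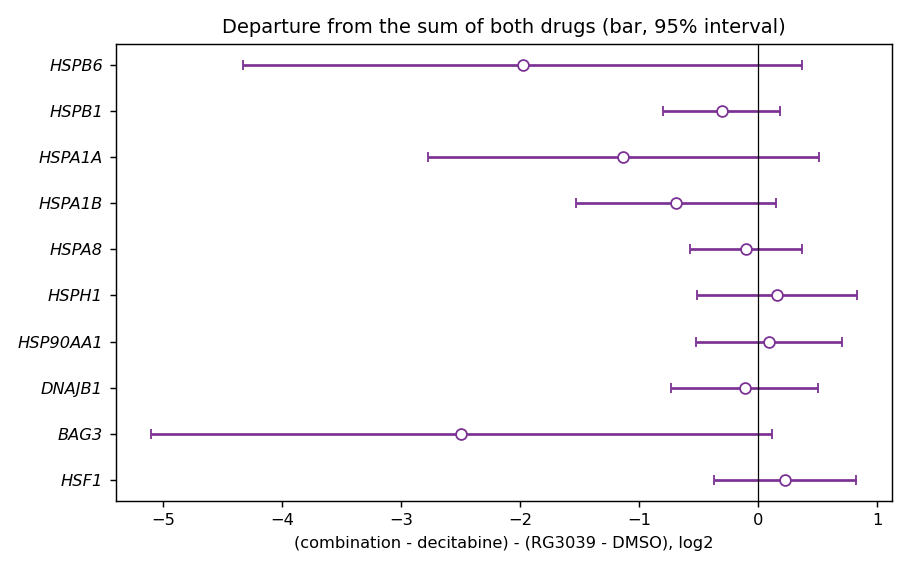
Interaction of both drugs for each heat shock gene on the log2 scale, with 95% intervals from the limma fit, where 0 is the sum of the single responses. The intervals of all genes other than HSPB6 include 0, and those of HSPB6 and BAG3 are the widest. HSPB6 was selected on its difference between RG3039 and DMSO, so its interval is drawn as a description only.

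The other genes of the chaperone network were taken from a list of 63 symbols in 8 groups. They name 64 rows, because HSPA14 names 2, of which ENSG00000284024.2 carries the symbol MSANTD7 in the table of gene names. Of these rows, 55 passed the filter on low values and were tested. With the combination against DMSO, 4 rows rose (11.4% of all genes tested) and 22 fell (12.7% of all genes). Of those that rose, HSPA6, HSPA2 and DNAJB5 averaged 9.07, 9.69 and 5.35 in DMSO. These passed the filter through treated libraries, so their place in the count is a description only. The median log2 difference of the tested rows was -0.42, where that of all genes was 0.04. The number called was 13 without the mean-variance trend, against 26 in all, where 2847 of all genes were called against 4221. Fewer rows, and fewer of all genes, were also called when DMSO replicate 2 or either combination library was left out.

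The TRiC chaperonin, a ring complex that folds actin and tubulin, had all 8 of its subunits called lower with the combination (limma), beside 12.7% of all genes. Their median was -0.76. CCT6A had normalised values of 13826 and 18041 (DMSO), 8993 and 8823 (decitabine), 9515 and 8874 (RG3039), and 5525 and 5293 (combination). The combination differed from DMSO by -1.55 ± 0.15 (adjusted p = 0.000173). CCT2 had 7797 and 8341 (DMSO), 5166 and 3822 (decitabine), 6857 and 4169 (RG3039), and 2312 and 2497 (combination). The combination differed from DMSO by -1.75 ± 0.23 (adjusted p = 0.000808). In both genes the combination libraries were below all others. The other 6 subunits had differences from -0.87 (CCT3) to -0.51 (TCP1). The number called was 5 without either combination library, where 1095 (without replicate 1) and 1298 (without replicate 2) of all genes were called lower, and 5 without the mean-variance trend, where 1288 were, against 2222 in all. CCT6A was also called lower with decitabine (-0.83 ± 0.15, adjusted p = 0.0253), with RG3039 (-0.78 ± 0.15, adjusted p = 0.0128), and with the combination against decitabine (-0.72 ± 0.15, adjusted p = 0.0206) and against RG3039 (-0.76 ± 0.15, adjusted p = 0.0353). CCT2 was called lower with the combination against RG3039 (-1.15 ± 0.23, adjusted p = 0.0371), as was CCT5 (-0.66 ± 0.14, adjusted p = 0.0423), and against decitabine (-0.89 ± 0.23, adjusted p = 0.0482).

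Among 14 genes of HSP90 and its co-chaperones, 5 fell with the combination and 0 rose, beside 12.7% and 11.4% of all genes. They were FKBP5, HSP90AB1, NUDC, PTGES3 and SUGT1, which are named here after their values were seen, with differences from -0.95 to -0.63. HSP90AB1, the constitutive HSP90, had 98333 and 100321 (DMSO), 65221 and 80374 (decitabine), 79931 and 85085 (RG3039), and 58866 and 54414 (combination). The combination differed from DMSO by -0.81 ± 0.14 (limma adjusted p = 0.00323). The order of the groups was that of HSP90AA1, with no overlap between DMSO and any treatment. STIP1, which bridges HSP70 and HSP90, was not called (-0.33 ± 0.27). FKBP5, an HSP90-bound prolyl isomerase, also fell with RG3039 alone (-0.68 ± 0.15, adjusted p = 0.0268) and with the combination against decitabine (-0.63 ± 0.15, adjusted p = 0.0387).

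Of 8 HSP70 exchange factors and partners, 2 fell with the combination, BAG1 and BAG2, and 0 rose, beside 12.7% and 11.4% of all genes. BAG2, which inhibits the ubiquitin ligase CHIP, had 859 and 971 (DMSO), 659 and 722 (decitabine), 473 and 540.4 (RG3039), and 370 and 401 (combination). Each of the 4 libraries given RG3039 was below each of the other 4. Its difference from DMSO was -1.24 ± 0.18 with the combination (limma adjusted p = 0.00142) and -0.85 ± 0.18 with RG3039 (adjusted p = 0.0225), and it was -0.84 ± 0.18 for the combination against decitabine (adjusted p = 0.0252).

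The only small heat shock gene on the list that was tested, HSPB11, encodes a subunit of the intraflagellar transport complex. It had 930.2 and 778 (DMSO), 912 and 726 (decitabine), 448 and 258 (RG3039), and 276 and 233 (combination). Its direction was opposite to that of HSPB6, with the libraries given RG3039 below the others. It fell with RG3039 against DMSO (-1.32 ± 0.28, limma adjusted p = 0.020) and against decitabine (-1.26 ± 0.28, adjusted p = 0.0341), and the combination fell below DMSO (-1.74 ± 0.28, adjusted p = 0.00205) and below decitabine (-1.68 ± 0.28, adjusted p = 0.00845).

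The 4 network genes that rose with the combination were HSPA6, HSPA2, DNAJB5 and DNAJB2, named after their values were seen. HSPA6, an HSP70 made almost only under stress, had 10.6 and 7.55 (DMSO), 58.0 and 38.5 (decitabine), 39.0 and 20.7 (RG3039), and 52.4 and 59.0 (combination). The combination differed from DMSO by 2.51 ± 0.55 (limma adjusted p = 0.00972). All treated libraries were above DMSO, as for BAG3, at low values. The differences of HSPA2, DNAJB5 and DNAJB2 were 2.04 ± 0.66, 3.49 ± 0.78 and 1.89 ± 0.48, and of the 8 J-domain genes 2 rose and 2 fell, beside 11.4% and 12.7% of all genes. HSPA6, HSPA2 and DNAJB5 averaged under 10 in DMSO, so they passed the filter on low values through treated libraries. HSBP1, a small protein that binds HSF1, fell with the combination (-1.65 ± 0.41, adjusted p = 0.0170), while HSF2 gave -0.35 ± 0.21 and was not called.

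**Figure D4:**
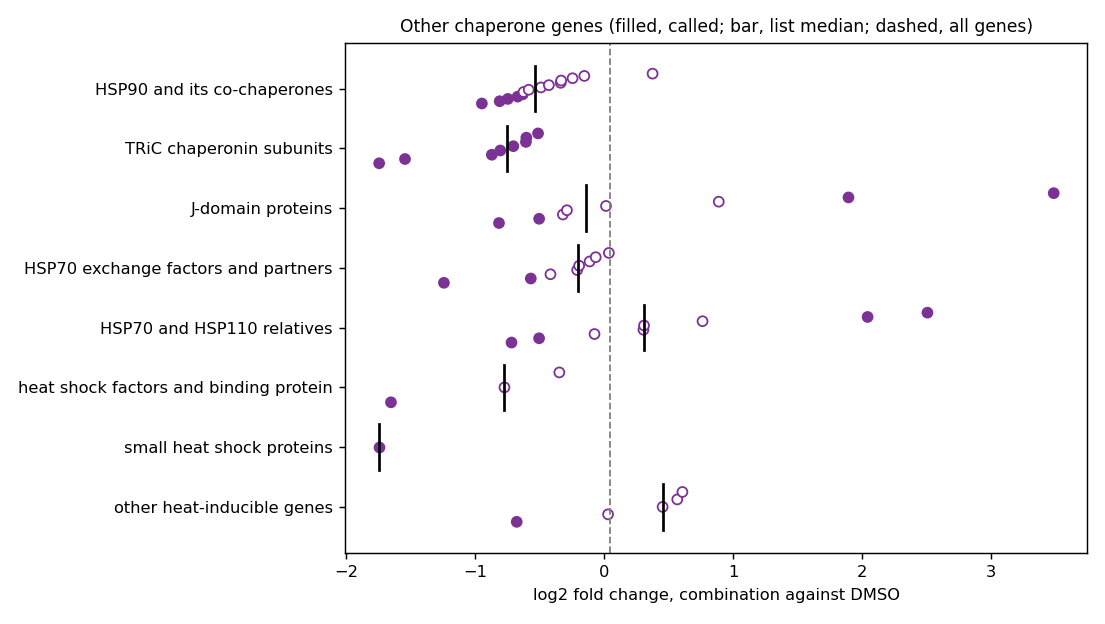
Log2 difference between the combination and DMSO for the 55 tested rows of the wider chaperone list, by group, with filled points where limma's adjusted p was under 0.05, black bars for the median of a group and a dashed line at the median of all genes (0.04). All 8 TRiC subunits lie left of the line and are filled, and DNAJB5 at 3.49 lies farthest to the right. DNAJB5, HSPA6 and HSPA2 passed the filter on low values through treated libraries.

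With decitabine against DMSO, 1 of the 55 rows was called lower and 0 higher, beside 0.405% and 1.74% of all genes. With RG3039, 5 were called lower and 0 higher, beside 3.59% and 4.53%. The combination gave 5 lower and 0 higher against decitabine, beside 3.39% and 3.94%. It gave 3 lower and 0 higher against RG3039, beside 0.787% and 1.49%. RG3039 against decitabine gave 1 lower and 0 higher, beside 2.67% and 1.92%. The interaction gave 0 calls by limma, with an unadjusted p under 0.05 for 1 row.

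Genes with the pattern most like a member were sought for the 5 members whose group means spanned at least 1 on the log2 scale. Likeness is the root mean square difference of log2(value + 1) over the 8 libraries, each gene centred on its own mean, so a smaller value is closer. For HSPA8 the nearest were PDCD2 (0.051), CCDC86 (0.053) and POP1 (0.060). For HSPH1 they were ALG3 (0.094), NHP2 (0.097) and CCT3 (0.10). PDCD2 had 3003 and 3497 (DMSO), 2002 and 2382 (decitabine), 2322 and 2132 (RG3039), and 1435 and 1503 (combination), the same order of groups as HSPA8. For HSPA1A the nearest were AL139220.1 (0.179), WDR66 (0.20) and AMOTL1 (0.236), and for BAG3 AC008467.1 (0.320), LINC00937 (0.430) and KCNIP1-OT1 (0.447). For HSPB6 the nearest were CHMP4BP1 (0.628), AL137060.3 (0.704) and CCDC7 (0.708). Likeness is not scaled to the span of the group means, which was 5.23 for HSPB6, 2.39 for BAG3 and 1.18 for HSPA1A. CCDC7 had 67.3 and 157 (DMSO), 255 and 168 (decitabine), 846 and 1894 (RG3039), and 906 and 2522 (combination).

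The estimated depth was 20711800 to 40948100 reads per library. The 8 promyelocytic markers summed to 161296 to 198299 in DMSO, 161067 to 201549 with decitabine, 106746 to 123019 with RG3039 and 91351 to 102582 with the combination, and all 8 were over 100 in every library. Most of this sum is MPO, and single markers went other ways, such as CEBPE with 2368 and 2700 in DMSO and 6514 and 7476 with the combination. Of markers of other cell types, the T and B cell sums were highest with the combination. The 3 T cell markers summed to 3.01 to 9.06 in DMSO, 26.9 to 61.6 with decitabine, 5.37 to 13.5 with RG3039 and 104 to 210.4 with the combination. The 3 B cell markers summed to 27.2 to 37.8, 101 to 121, 29.6 to 93.1 and 146 to 161 in the same order, with MS4A1 at 0 throughout, and the 4 fibroblast and epithelial markers to 114 to 369, 343 to 431, 264 to 348 and 723 to 994, with COL3A1 at 0. The latter sum is mostly KRT18, at 919 and 653 with the combination, while COL1A1 was at 65.8 and 40.3 in DMSO and 51.03 and 56.04 with the combination. Whether these shifts bear on the heat shock results was not tested, and fewer transcripts per cell cannot be told apart from fewer cells that carry them.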

How the data were processed

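Polyadenylated RNA of 8 HL-60 libraries in 4 groups of 2 was sequenced as single-end reads with a 3′ tag kit (QuantSeq FWD), per the labels' protocols. Each gene has 1 deposited value per library, a signal made by the authors from read counts and scaled between libraries. Per the submitters' processing notes, Salmon 1.2.1, STAR, featureCounts, DESeq2, limma and hg38 were used, with no role given.

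Low values of genes with 1 transcript were whole multiples of 1 value per library (97.5% to 98.1% within 0.02), taken as the value of 1 read, but over all genes only 74.4% to 80.8% were. No count test was therefore run. Rows with a mean of at least 10 were tested as log2(value + 1) with limma 3.58.1 in R 4.3.3, 1 mean per group over all 8 libraries, eBayes with trend, two-sided, Benjamini-Hochberg over 17534 rows, called at adjusted p under 0.05. The fit had 4 residual and 5.51 prior degrees of freedom and was tested on simulated data. Coordinates and transcripts came from GENCODE 29 (GRCh38), promoters from RefSeq. Python 3.11.15, pandas 2.3.3, numpy 2.4.6 and matplotlib 3.10.9 were used.

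Members and lists were chosen with earlier results of these data known. Named were all members, the 4 called network genes with the smallest p per contrast, and the 3 nearest genes by likeness. Alternatives were quantile normalization, a pseudocount of 5, no filter, no trend, fits on the compared groups alone, a block on replicate number, and leaving out each library. Summing HSPA1A with HSPA1B was added after seeing the data, as was the count of TRiC subunits under each alternative.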

Additional observations from a re-analysis of the deposited data

How the results depend on the processing

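Counts of called genes from limma moved with the model and with single libraries, and 2 libraries per group limit what can be called. Of the heat shock genes, the block on replicate number called 2 with decitabine and 3 with RG3039 against DMSO and 1 with the combination against RG3039, in place of 0, 1 and 0 (these counts include HSPB6 where it passed), and 6 in place of 3 network genes in the latter. It called HSPA8 (adjusted p = 0.0479) and HSP90AA1 (0.0469) with decitabine, HSPA8 (0.0326) and HSPH1 (0.0361) with RG3039, and HSPA1B with the combination (0.0444). Same-numbered libraries deviated together weakly (r from -0.08 to 0.16 across genes), so the numbers were not taken to pair wells. Quantile normalization called 2 with RG3039 and 1 with the combination against RG3039, where a pseudocount of 5 and only the groups compared each called 1 as well. With no filter, 0 heat shock genes were called in the combination against decitabine and 0 in RG3039 against decitabine, the latter also 0 with only the groups compared. Without the trend, 2 were called with the combination against DMSO and 1 against decitabine.

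Network genes called without the trend were 0 with decitabine, 0 with RG3039, 13 with the combination, 0 for the combination against decitabine, 0 against RG3039 and 0 for RG3039 against decitabine, and 5 TRiC subunits were called lower in place of 8. With only the groups compared they were 0 with decitabine, 0 with RG3039 and 0 for RG3039 against decitabine. With no filter they were 0 with decitabine, 3 for the combination against decitabine, 0 against RG3039 and 0 for RG3039 against decitabine. The cause was not tested, except that no filter means more genes tested (31387 above 0 in at least 1 library).

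Leaving out each library, the lone library of that group being assumed to vary like the other groups, gave 0 to 1 heat shock genes with decitabine, 1 to 3 with RG3039, 2 to 5 with the combination, 0 to 2 for the combination against decitabine, 0 to 1 against RG3039 and 0 to 1 for RG3039 against decitabine. Network genes ran from 0 to 2, 0 to 5, 11 to 25, 0 to 5, 0 to 3 and 0 to 1 in the same order, and TRiC subunits from 5 to 8. The interaction gave 0 in all. No called change of a heat shock gene changed sign in any alternative.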
